A study of Mus musculus with 8 samples.

Results

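The genes described are the splicing factors of 4 families, the SR proteins (Srsf symbols), the hnRNP proteins (Hnrnp symbols), the subunits of splicing factor 3 (Sf3a and Sf3b symbols) and the U2 auxiliary factors (U2af symbols). The rule reads symbols and takes every gene whose name begins with Srsf or with Sf3a or Sf3b and a digit, or with Hnrnp or U2af, which gave 43 of the 31053 genes counted: 11 SR, 20 hnRNP, 9 SF3 and 3 U2AF genes.

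Cells of the mouse line SN4741 were profiled by droplet single-cell RNA-seq in 8 libraries, 4 from cultures at the permissive temperature (37 °C) and 4 from cultures at the non-permissive temperature (39 °C). SN4741 is a line of neural precursors immortalized with a temperature-sensitive viral T antigen. The 37 °C cultures grew in high-glucose DMEM with 10% fetal bovine serum, and the 39 °C cultures were moved 24 h after passage to 39 °C in DMEM with 0.5% fetal bovine serum and stayed there for 48 h. All 8 libraries carry the genotype label WT and the same antibiotics, and temperature and serum changed together, so their effects cannot be told apart.

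Splicing removes introns from new transcripts. The U2AF heterodimer binds the end of the intron, and SF3a and SF3b, parts of the U2 particle, then fix the branch point. SR proteins mostly bind exons and recruit that machinery, whereas hnRNP proteins coat the transcript and often block or loop out splice sites. SR and hnRNP proteins also act in export, stability and translation of mRNA. Several SR genes control their own level through an exon that sends the transcript to decay.

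The promoters of the 5 SR and hnRNP genes with the largest falls at 39 °C, and of Srsf5, the member that rose, are shown because the same sequences are compared below with motifs known from cell-cycle genes. Each line is the stretch of 150 bases up to the base before the RefSeq transcription start (GRCm38.p6), 5′ to 3′ on the strand of the gene, with CCAAT boxes (CCAAT), TATA boxes (TATAAA), ETS motifs (CCGGAAG) and the cell-cycle homology letters (TTTGAA) in capitals on either strand. The stretches lie at chr17:80207306-80207455 (minus strand) for Srsf7, chr17:29032510-29032659 (plus strand) for Srsf3, chr11:116853095-116853244 (minus strand) for Srsf2, chr11:51606882-51607031 (minus strand) for Hnrnpab, chr15:103240247-103240396 (plus strand) for Hnrnpa1 and chr12:80945349-80945498 (plus strand) for Srsf5.
Srsf7: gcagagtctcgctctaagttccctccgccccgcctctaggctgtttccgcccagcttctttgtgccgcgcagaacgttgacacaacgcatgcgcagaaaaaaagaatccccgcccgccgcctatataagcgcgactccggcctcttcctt
Srsf3: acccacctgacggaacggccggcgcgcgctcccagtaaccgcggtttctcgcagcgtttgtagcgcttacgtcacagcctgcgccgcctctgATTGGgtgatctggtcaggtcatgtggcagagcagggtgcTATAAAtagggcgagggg
Srsf2: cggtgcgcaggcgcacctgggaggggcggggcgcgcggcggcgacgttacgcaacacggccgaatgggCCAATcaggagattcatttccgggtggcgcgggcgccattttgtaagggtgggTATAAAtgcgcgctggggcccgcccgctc
Hnrnpab: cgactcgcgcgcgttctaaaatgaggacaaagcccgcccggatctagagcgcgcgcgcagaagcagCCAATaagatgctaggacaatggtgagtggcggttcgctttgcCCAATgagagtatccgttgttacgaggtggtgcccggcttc
Hnrnpa1: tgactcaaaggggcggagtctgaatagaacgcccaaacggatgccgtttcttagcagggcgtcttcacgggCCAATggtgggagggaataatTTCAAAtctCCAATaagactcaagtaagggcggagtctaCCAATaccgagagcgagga
Srsf5: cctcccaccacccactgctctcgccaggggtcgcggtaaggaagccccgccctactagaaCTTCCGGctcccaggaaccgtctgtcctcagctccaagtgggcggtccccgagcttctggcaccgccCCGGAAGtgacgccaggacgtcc

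Srsf3 and Srsf2 each had 1 CCAAT box and 1 TATA box in this stretch, Hnrnpab had 2 CCAAT boxes, and Hnrnpa1 had 3 CCAAT boxes with 1 match to TTTGAA. Srsf7, the member with the largest fall, had no exact match to the letters of the capitalized motifs there, and Srsf5 had 2 ETS motifs and no CCAAT box. Looser forms of these motifs were not searched, so the stretch tatataa of Srsf7 was not counted as a TATA box.

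Over the full windows of 300 bases (250 before the start and 50 after it), 38 of the 43 members had an entry among 32851 RefSeq promoters. The CCAAT box was present in 50% of the members and 37.4% of all windows, the ETS motif in 31.6% and 8.86%, and the GC box GGGCGG in 73.7% and 35.7%. The E2F letters TTTCCCGC occurred in 4 members, Srsf1, Srsf10, Hnrnpul1 and U2af1 (10.5%, against 1.07% of all windows). A second E2F form, TTTGGCGC, occurred in 0% of the members and 0.514% of all windows. Of the 12 motifs searched, NRF1 (0.971% of all windows) and the cyclic AMP response element (1.79%) also occurred in 0% of the members. The heat shock element core was in 10.5% and 7.86%, the MYC E-box in 10.5% and 7.15%, and the YY1 motif in 2.63% and 1.4%. TATAAA was present in 13.2% of the members and 13.6% of all windows, and TTTGAA in 10.5% and 17.9%. These are matches of letters on both strands, not sites shown to be bound, and no test was made of the difference. Each member was counted only with the window nearest its annotated start, whereas the share of all windows took every RefSeq window. The windows were not matched to the members in level or class of gene, so the gaps cannot be read as particular to splicing factors.

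A unique molecular identifier (UMI) marks 1 captured transcript, and levels are given as CPM (counts per 1000000 UMIs) after scaling by trimmed mean of M values (TMM). Because the kit counts 1 UMI for each captured molecule at its poly(A) end, levels are not divided by transcript length. Cells with over 15% mitochondrial UMIs, under 200 genes or over 6000 genes were left out, which kept 18351 of 19125 cells. Kept libraries held 985 to 3494 cells and 17166686 to 29633818 UMIs, and replicate 1 at 39 °C had the fewest cells and UMIs but the highest median per cell (16665 UMIs). Of 12 neural precursor markers 7 had enough counts to test (5 higher at 39 °C and 1 lower), with a summed level of 6096 to 6429 CPM at 37 °C and 5847 to 6400 CPM at 39 °C. Most of this sum came from Vim alone (604063 UMIs at 37 °C and 504873 at 39 °C, beside 52352 and 10712 of Nes). Vim, Nes, Sox2, Hes1 and Notch1 were well detected, Nes fell by 2.11 and Notch1 rose by 1.09 on the log2 scale, and Sox1, Pax6, Hes5 and Fabp7 had at most 3 UMIs at either temperature. Of 12 neuronal markers 7 were tested (0 higher and 4 lower), with a sum of 166 to 199 CPM at 37 °C and 78.9 to 98.9 CPM at 39 °C, mostly from Stmn2 and Map2, while Dcx and Elavl4 had 0 UMIs. Of 12 mesenchymal markers 10 were tested (2 higher and 5 lower), with a sum of 2129 to 2174 CPM at 37 °C and 1198 to 1247 CPM at 39 °C, mostly from Col1a1, Col1a2 and Fn1, while Thy1, Lum, Dcn and Postn had at most 61 UMIs at either temperature. Of 12 glial and microglial markers 7 were tested (1 higher and 1 lower), with a sum of 9.022 to 9.675 CPM at 37 °C and 9.842 to 11.29 CPM at 39 °C. Beside these counts, 31.5% of all genes tested were called higher at 39 °C and 30.5% lower. The part of these markers in the results below was not tested.

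Of the 43 genes, 42 had enough counts to be tested. Srsf12 had 0 UMIs in all libraries, which allows at most 0.0265 CPM at 37 °C and 0.0308 CPM at 39 °C. U2af1l4, a paralogue of the small U2AF subunit, had 246 and 113 UMIs and was the only tested member with a mean below 20 CPM. The others had a mean of 20.2 to 499 CPM in every temperature group, and their coefficient of variation between replicate libraries had a median of 4.14% at 37 °C and 4.08% at 39 °C.

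The first comparison asked how the levels of these factors differed between cultures at 39 °C and at 37 °C over all kept cells. Most of them were lower at 39 °C: 38 of 42 tested members fell, 1 rose (Srsf5) and 3 did not pass the test (edgeR quasi-likelihood test on counts summed per library, Benjamini-Hochberg adjusted p under 0.05 over 15810 genes). Over all genes tested, 30.5% were called lower and 31.5% higher. Among genes of at least 20 CPM, as 41 of the tested members were, these shares were 42.4% and 36.5%. The median log2 fold change (39 °C over 37 °C) was -0.47 for the members and 0.02 for all genes. For 18 members the fall exceeded 0.5 on the log2 scale, against 16.5% of all genes, and in 38 the values at 37 °C and at 39 °C did not overlap, against 56.7% of all genes. Both shares, like those given below within and between phases, are over all genes tested. They include genes below 20 CPM and are not matched to the members in level. Leaving out any 1 library gave 38 or 39 lower and 1 higher. A lower sum can come from fewer cells with the transcript or from fewer copies per cell, and these cannot be told apart in summed counts.

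**Figure D1:**
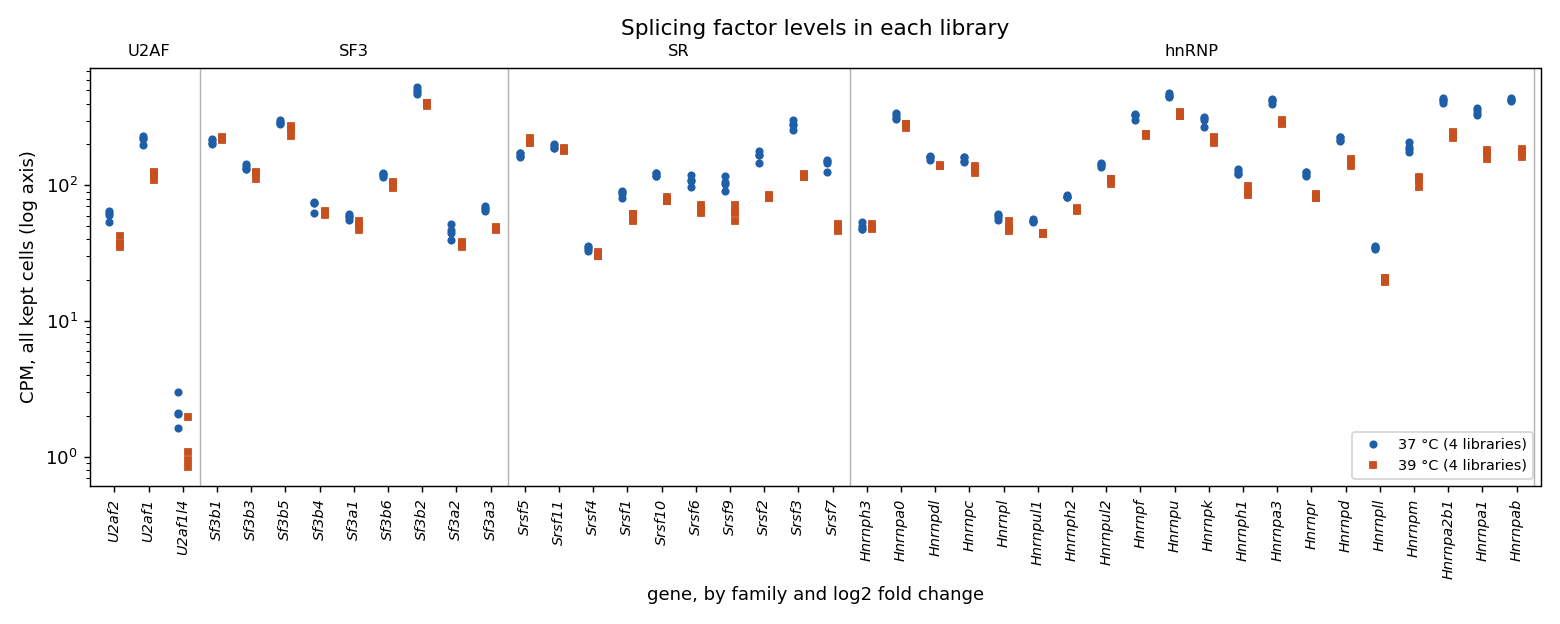
Level of each tested splicing factor in each library over all kept cells (CPM, log axis), with genes ordered within their family by log2 fold change and 1 point per library (circles, 37 °C; squares, 39 °C). In 38 of 42 genes the points of the 2 temperatures do not overlap, and Srsf5 alone has all its 39 °C points above its 37 °C points.

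Summed over its members, the SR family had 1406 ± 71.4 CPM (SD, n = 4) at 37 °C and 939 ± 24.8 CPM at 39 °C, a ratio of 0.668. The hnRNP family had 4434 ± 90.2 and 2980 ± 49.3 CPM, a ratio of 0.672. The SF3 family had 1500 ± 52.2 and 1298 ± 29.5 CPM, a ratio of 0.865. The U2AF family had 280.5 ± 17.8 and 158 ± 4.23 CPM, a ratio of 0.564. The U2AF sum thus had the lowest ratio and the SF3 sum the one nearest to 1, and all 39 °C libraries were below all 37 °C libraries in each of the 4 sums. Sums are weighted to abundant members and are given without a test.

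The U2AF genes come first in the order of assembly. U2af1, the small subunit, which contacts the AG at the intron end, was at 198, 222, 220.2 and 231 CPM in the 37 °C libraries and at 109.7, 125, 123 and 119 CPM in the 39 °C libraries. It was the most abundant of the family, and all 39 °C libraries were below all 37 °C libraries (log2 fold change -0.87 ± 0.05 SE, adjusted p = 5.83e-11). Its count is uncertain because 3 other annotated transcripts are near-identical to its end.
U2af2, the large subunit, which binds the polypyrimidine tract, was at 54.2, 65.0, 62.4 and 60.9 CPM at 37 °C and at 42.7, 37.2, 37.1 and 35.4 CPM at 39 °C. It too separated without overlap and fell by 0.68 ± 0.06 on the log2 scale (adjusted p = 1.28e-08). U2af1l4 was at 2.12, 3.02, 2.07 and 1.65 CPM at 37 °C and at 1.99, 0.946, 1.10 and 0.848 CPM at 39 °C. These groups overlapped, with replicate 1 at 39 °C inside the 37 °C range, although the fit called a fall (-0.92 ± 0.23, adjusted p = 0.00167). U2af1l4 shares exon positions with genes on the same and on the opposite strand, so its low counts are uncertain.

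In the SF3 family 8 of 9 members fell, each by less than 0.5 on the log2 scale, and Sf3b1 did not pass the test. Sf3b1, which clamps the branch point helix and is the target of several splicing inhibitors, was at 204, 217, 202 and 218 CPM at 37 °C and at 225, 229, 222 and 214 CPM at 39 °C. Its groups overlapped and its log2 fold change was 0.08 ± 0.05 (adjusted p = 0.142).
Sf3b2, a large subunit of SF3b, had the highest counts of all 43 genes, with 474, 499.6, 488 and 534 CPM at 37 °C and 399.7, 404, 404 and 387 CPM at 39 °C. It separated without overlap and fell by 0.32 ± 0.05 (adjusted p = 1.41e-05).
Sf3b3, the scaffold subunit, was at 143, 133, 132 and 139 CPM at 37 °C and at 112, 124, 124 and 124 CPM at 39 °C. Replicate 1 at 39 °C lay below the other 3, and the fall was 0.17 ± 0.05 (adjusted p = 0.00442).
Sf3b4, an RNA-binding subunit, was at 62.2, 74.8, 74.5 and 74.1 CPM at 37 °C and at 62.2, 64.9, 61.1 and 61.6 CPM at 39 °C. Replicate 1 at 37 °C was at the level of the 39 °C libraries, so the groups overlapped, and the fitted fall was 0.19 ± 0.06 (adjusted p = 0.00537).
Sf3b5, a small subunit, was at 288, 285, 292 and 302 CPM at 37 °C and at 229.9, 263, 262 and 274 CPM at 39 °C. It did not overlap and fell by 0.18 ± 0.05 (adjusted p = 0.00639). Sf3b6, the subunit that contacts the branch point adenosine, was at 115, 122, 121 and 119 CPM at 37 °C and at 96.2, 98.5, 103 and 105 CPM at 39 °C. It did not overlap either and fell by 0.24 ± 0.05 (adjusted p = 0.00011).

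The 3 SF3a genes, which join the U2 particle to SF3b, had lower counts than most SF3b genes. Sf3a1 was at 55.2, 58.7, 59.9 and 61.2 CPM at 37 °C and at 46.7, 55.1, 50.6 and 50.8 CPM at 39 °C. Its highest 39 °C library lay just below its lowest 37 °C library, and it fell by 0.21 ± 0.05 (adjusted p = 0.00199).
Sf3a2 was at 39.9, 44.6, 47.0 and 52.4 CPM at 37 °C and at 36.8, 36.5, 35.0 and 38.4 CPM at 39 °C. It had the widest relative spread at 37 °C of the tested members other than U2af1l4 (coefficient of variation 11.4%) and fell by 0.33 ± 0.07 (adjusted p = 0.000249). Sf3a3 was at 64.4, 68.7, 66.9 and 70.2 CPM at 37 °C and at 47.5, 48.5, 49.6 and 47.2 CPM at 39 °C. It had the largest fall of the family, 0.49 ± 0.04 (adjusted p = 1.4e-08), with wide separation between the groups. Sf3a2, Sf3b2, Sf3b3 and Sf3b4 share exon positions with a gene on the opposite strand, and Sf3b3 with small RNAs on its own strand, so their counts carry that uncertainty.

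Of the 10 SR genes tested, 8 fell, 7 of them by more than 0.5, Srsf5 rose and Srsf11 did not pass the test. Srsf7, a shuttling SR protein that acts in splicing and mRNA export, was at 125, 151, 146 and 153 CPM at 37 °C and at 47.0, 46.2, 51.6 and 51.2 CPM at 39 °C. This was the largest fall of all 42 genes tested (1.55 ± 0.06 on the log2 scale, adjusted p = 9.06e-14), and the highest 39 °C library was far below the lowest 37 °C library.
Srsf3, the smallest SR protein, which couples splicing with export and polyadenylation, was at 257, 283, 280.3 and 302 CPM at 37 °C and at 119, 116, 115 and 121 CPM at 39 °C. It had the highest counts of the family at 37 °C, and it fell by 1.25 ± 0.05 (adjusted p = 1.24e-13).
Srsf2, a nuclear SR protein that defines exons, was at 146, 168, 168 and 178 CPM at 37 °C and at 81.7, 80.2, 80.1 and 84.9 CPM at 39 °C. It fell by 1.01 ± 0.06 (adjusted p = 7.5e-12), and its exons share positions with opposite-strand genes. Srsf9, a small SR protein, was at 91.7, 103, 116 and 106 CPM at 37 °C and at 62.8, 54.9, 71.4 and 64.1 CPM at 39 °C. It had the widest relative spread at 39 °C of the tested members other than U2af1l4 (coefficient of variation 10.7%) and still did not overlap (-0.72 ± 0.07, adjusted p = 5.3e-08).

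Srsf5 went the other way. It was at 161, 172, 165 and 172 CPM at 37 °C and at 207, 205, 223 and 204 CPM at 39 °C, so every 39 °C library was above every 37 °C library. The log2 fold change was 0.33 ± 0.05 (adjusted p = 6.45e-06). Srsf11, an SR-like protein, was at 188, 199, 188 and 200 CPM at 37 °C and at 182, 180.3, 182 and 188 CPM at 39 °C. Its values all but touched without overlap, and the difference was -0.08 ± 0.04 (adjusted p = 0.119). The remaining falls in the family were those of Srsf6 (0.71), Srsf10 (0.62), Srsf1 (0.56) and Srsf4 (0.15).

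Of the 20 hnRNP genes, 19 fell, 8 of them by more than 0.5, and Hnrnph3 did not pass the test. Hnrnpab, a member of the A/B group that also acts in transcription and mRNA transport, was at 425, 442, 419.8 and 424 CPM at 37 °C and at 163, 177, 184 and 177 CPM at 39 °C. It had the largest fall of the family (1.29 ± 0.05, adjusted p = 4.69e-14), with wide separation.
Hnrnpa1, which represses exons by binding silencer motifs, was at 330.0, 341, 372 and 359 CPM at 37 °C and at 182, 157, 173 and 174 CPM at 39 °C. It fell by 1.03 ± 0.05 (adjusted p = 4.67e-12). Hnrnpa2b1, its close relative, was at 407, 426, 442 and 426 CPM at 37 °C and at 237, 224, 248 and 241 CPM at 39 °C. Its fall was 0.84 ± 0.05 (adjusted p = 1.85e-11), and neither gene overlapped between temperatures.
Hnrnpm, which binds GU-rich sequence, was at 178, 207, 184 and 192 CPM at 37 °C and at 115, 109, 113 and 97.5 CPM at 39 °C. It separated without overlap and fell by 0.81 ± 0.06 (adjusted p = 3.99e-10), and it shares exon positions with a neighbour on the same strand. Hnrnpu, a nuclear scaffold protein and the family's highest in counts, was at 464, 451, 455 and 483 CPM at 37 °C and at 326, 345, 339 and 327 CPM at 39 °C. Its groups were also far apart (-0.47 ± 0.05, adjusted p = 4.92e-08).
Hnrnph3 was at 47.8, 53.4, 50.2 and 48.1 CPM at 37 °C and at 52.1, 48.6, 50.1 and 47.5 CPM at 39 °C. These ranges overlapped almost wholly, and the difference was -0.0094 ± 0.05 (adjusted p = 0.885).

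The other 14 hnRNP genes had falls from 0.21 (Hnrnpa0) to 0.79 (Hnrnpll) on the log2 scale. Hnrnpl, the closest relative of Hnrnpll, fell by 0.26 and Hnrnpll by 0.79, and Hnrnpd fell by 0.57 and its relative Hnrnpdl by 0.21, while Hnrnph1 fell by 0.47 and Hnrnph2 by 0.31. The differences between such relatives were not tested. Near-identical stretches in other annotated transcripts make the counts of Hnrnpa3, Hnrnpc, Hnrnpf, Hnrnph2 and Hnrnpk uncertain. For Hnrnph1 the only such match was to a transcript of Setd1b, a gene of another name. Hnrnpab, Hnrnpd, Hnrnpf, Hnrnph3, Hnrnpk, Hnrnpl, Hnrnpr and Hnrnpu, and in the SR family Srsf1 and Srsf4, share exon positions with a gene on the opposite strand, and their counts are likewise uncertain. Hnrnpa3 and Hnrnpul2, like Hnrnpm, share exon positions with a gene on the same strand, which makes their counts uncertain too.

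The libraries of the 2 temperatures also differed in phase composition. With cells assigned to G1, S or G2M by Seurat's lists of phase genes, which hold 0 of the 43 members, 20.64% to 28.67% of cells were in G1 in the 37 °C libraries and 82.54% to 85.38% in the 39 °C libraries. The temperature comparison was therefore repeated among cells of each phase. Within G1 cells 24 members were lower at 39 °C, 3 were higher and 15 did not pass the test, against 22.4% of genes called lower and 24.8% higher. The median over the members was -0.18 on the log2 scale and that of all genes tested 0.04. Of the 38 genes lower in all cells, 24 were also lower in G1, 13 were not called and 1, Srsf4, was higher. In all 38, the G1 value was above the value over all cells (less negative, or positive), a comparison of estimates from overlapping cells that was not tested.

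Within G1 the family sums had ratios (39 °C over 37 °C) of 0.837 for SR, 0.821 for hnRNP, 0.958 for SF3 and 0.739 for U2AF genes. As a share of 1 cell's UMIs, all members together had a median of 0.585% to 0.63% over G1 cells of the 37 °C libraries and of 0.501% to 0.516% over those of the 39 °C libraries, without overlap. In the SF3 family 1 member, Sf3b2, was lower in G1 (log2 fold change -0.20 ± 0.05, adjusted p = 0.00338), Sf3b1 was higher (0.16 ± 0.05, adjusted p = 0.012), and the other 7 did not pass the test. Sf3a3, Sf3b3 and Sf3b6 did pass, as falls, under each of the other scaling factors and with DESeq2.

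Among members of at least 20 CPM, the largest differences within G1 were those of Srsf7, Hnrnpa1 and Srsf3. Srsf7 was at 74.3, 83.8, 81.7 and 81.5 CPM in G1 cells at 37 °C and at 40.9, 40.3, 42.0 and 42.5 CPM at 39 °C (log2 fold change -0.95 ± 0.05, adjusted p = 2.58e-12). Hnrnpa1 was at 283, 281, 322 and 303 CPM at 37 °C and at 171, 146, 159 and 159 CPM at 39 °C (-0.91 ± 0.06, adjusted p = 1.53e-11). Both had wide separation between the temperatures.
Srsf3 was at 163, 181, 174 and 186 CPM in G1 cells at 37 °C and at 106, 104, 101 and 106 CPM at 39 °C (-0.76 ± 0.05, adjusted p = 4.41e-11). U2af1 was at 148, 158, 152 and 156 CPM at 37 °C and at 103, 118, 114 and 112 CPM at 39 °C (-0.45 ± 0.05, adjusted p = 2.01e-07). Neither overlapped, so 4 factors of 3 families were lower at 39 °C also among cells called G1.

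Srsf4 and Srsf5 were higher at 39 °C among G1 cells. Srsf4, a large SR protein, was at 25.9, 22.1, 27.8 and 27.8 CPM at 37 °C and at 29.8, 31.3, 32.5 and 29.7 CPM at 39 °C (log2 fold change 0.25 ± 0.07, adjusted p = 0.0067). Srsf5 was at 184, 194, 177 and 186 CPM at 37 °C and at 215, 209.3, 229 and 207 CPM at 39 °C (0.22 ± 0.05, adjusted p = 0.00145). Neither gene overlapped. When each library was scored for phase by itself the Srsf4 difference was 0.06 (adjusted p = 0.488), whereas that of Srsf5 still passed under every alternative tried.

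Among S cells 27 members were lower at 39 °C and 1 higher, against 23.4% and 20.1% of genes, and among G2M cells 19 were lower and 1 higher, against 16.5% and 13.2%. The G2M values at 39 °C rest on 29 to 187 cells a library. The SF3 sum among S cells had a ratio of 0.942 with TMM factors and of 1.008 with plain totals, so its direction depended on the scaling. Scoring each library by itself for phase gave 35 lower among G2M cells. In all 4 fits 17 members were lower and Srsf5 was higher, and 3 members, Srsf7, Srsf3 and Hnrnpab, fell by more than 0.5. Falls of that size were called for 9.73% of genes in G1, 10.8% in S and 9.44% in G2M. The share of all genes called in all 4 fits was not determined. The all-cell fit holds the same cells as the phase fits, so the fits are not independent. Among G2M cells the Srsf5 groups overlapped, and its call (0.22, adjusted p = 0.034) was lost with no filter on low counts, with the replicate number as a block and without replicate 1 or 3 at 37 °C or replicate 2 or 3 at 39 °C. The 17 comprised 6 SR genes (Srsf2, Srsf3, Srsf6, Srsf7, Srsf9 and Srsf10), 9 hnRNP genes, Sf3b2 and U2af1.

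**Figure D2:**
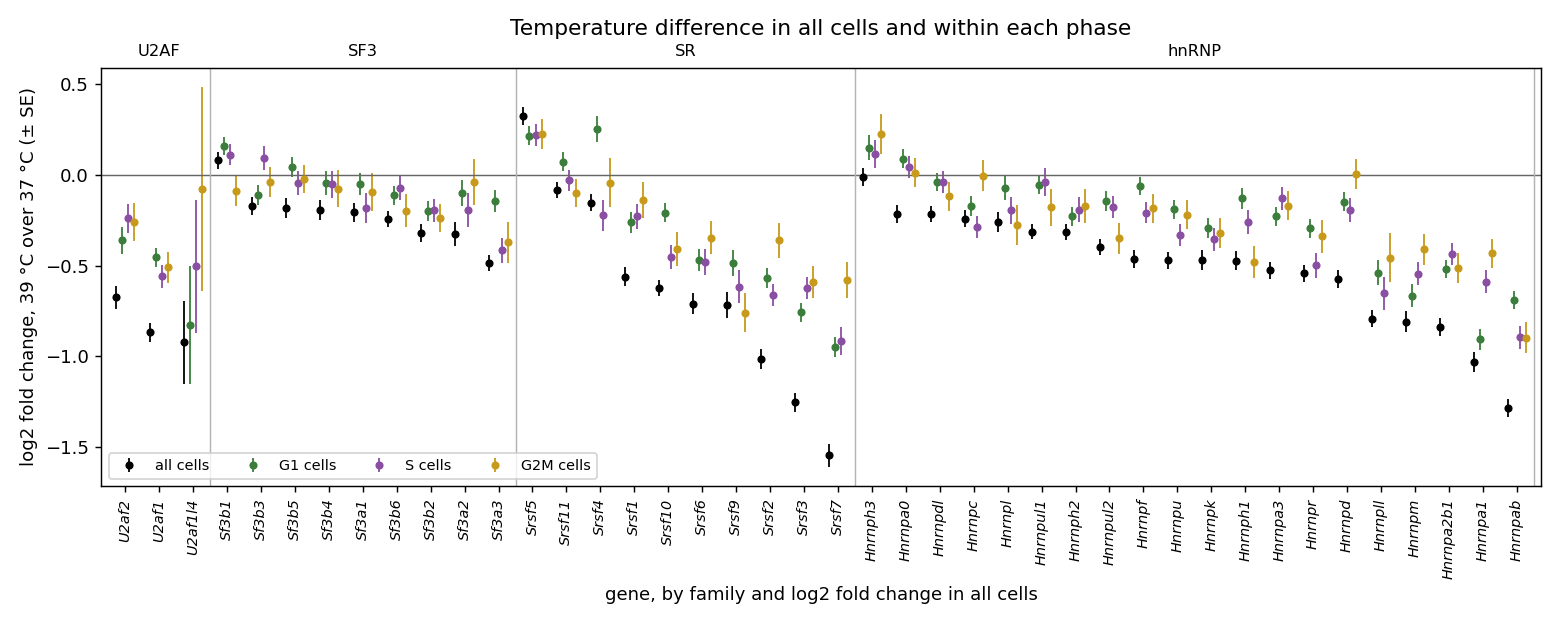
Log2 fold change (39 °C over 37 °C) of each tested splicing factor with its standard error, in all kept cells (black) and among cells assigned to G1 (green), S (purple) and G2M (gold), 4 libraries per temperature. Most black points lie below the coloured points of the same gene, and Srsf7, Srsf3 and Hnrnpab stay below -0.5 in all 4 fits.

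A separate fit on the 24 sums of library and phase, with the library as a block, compared phases within the same libraries. At 37 °C 37 members were higher in S than in G1 and 1 (Srsf5) was lower, against 21.2% and 23.8% of 14172 genes. From G1 to G2M 39 were higher and Srsf5 lower, against 20.8% and 22.7%. Of the members, 36 were higher in both S and G2M. At 39 °C the counts were 34 higher and 1 lower in S (18% and 19.3% of genes) and 30 higher and 1 lower in G2M (12.5% and 14%), and 27 members were higher in both phases at both temperatures. The share of all genes higher in both phases was not determined. Phases were called from other genes of the same cells.

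Levels in this fit are CPM scaled over all 24 sums. Srsf7 had the largest difference between S and G1: at 37 °C it was at 75.7, 85.7, 83.3 and 83.2 CPM in G1, at 148, 183, 179 and 182 CPM in S and at 142, 158, 150.5 and 160.5 CPM in G2M. At 39 °C it was at 40.4, 40.1, 41.8 and 42.5 CPM in G1, at 89.4, 83.2, 102 and 91.5 CPM in S and at 85.3, 81.0, 118 and 109.9 CPM in G2M. At each temperature all S and G2M values were above all G1 values (S minus G1 at 37 °C 1.07 ± 0.04 on the log2 scale, G2M minus G1 0.89 ± 0.04), and the S values at 39 °C reached those of G1 at 37 °C.
Hnrnpd, whose protein binds AU-rich elements and promotes mRNA decay, was at 154, 154, 143 and 155 CPM in G1, at 287, 293, 276 and 285 CPM in S and at 196, 204, 203 and 204 CPM in G2M at 37 °C. Its level was thus highest in S, by 0.91 ± 0.04 over G1, and intermediate in G2M.
Hnrnpab was at 274, 259, 264 and 268 CPM in G1, at 500.4, 515, 482 and 478 CPM in S and at 475, 483, 456 and 453 CPM in G2M at 37 °C. S exceeded G1 by 0.89 ± 0.03 and G2M exceeded it by 0.81 ± 0.03. Srsf3 was at 166, 185, 178 and 190.0 CPM in G1, at 277, 294, 304 and 309 CPM in S and at 312, 337, 324 and 355 CPM in G2M at 37 °C, and its highest phase was G2M (0.89 ± 0.03 over G1).

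Srsf5 had its highest values in G1. At 37 °C it was at 188, 199, 181 and 189 CPM in G1, at 156, 169, 172 and 177 CPM in S and at 156, 168, 157 and 163 CPM in G2M. The differences from G1 were -0.17 ± 0.04 in S and -0.23 ± 0.04 in G2M (edgeR, adjusted p = 8.93e-05 for S). At 39 °C they were -0.12 ± 0.04 (adjusted p = 0.0166) and -0.19 ± 0.06 (adjusted p = 0.00706), and the fall in S at 39 °C did not pass with RLE factors, plain totals or DESeq2. Members without a call between S and G1 at 37 °C were Sf3b1 (-0.03), Hnrnpc (0.06), Hnrnph2 (-0.04) and U2af1l4 (0.27), and between G2M and G1 Sf3b3 (0.05) and U2af1l4 (0.30).

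**Figure D3:**
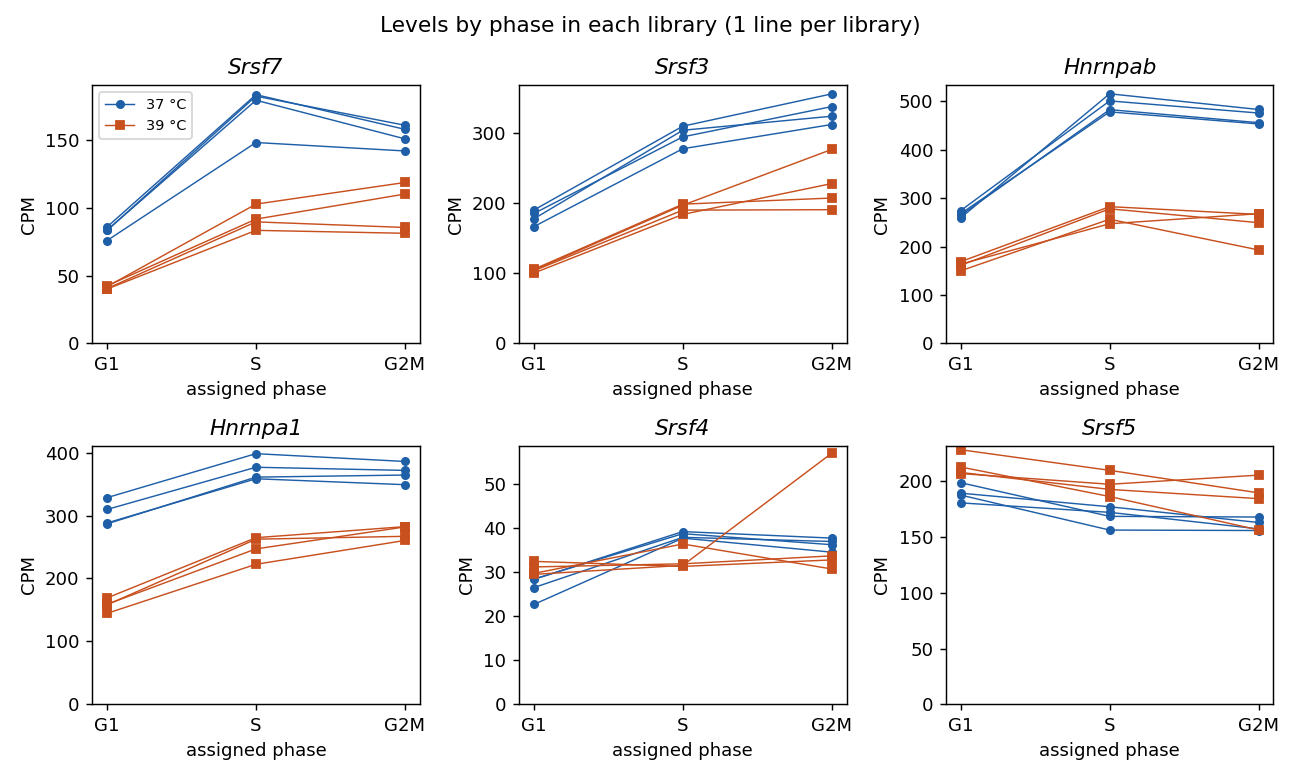
Level of 6 splicing factors (CPM, linear axis from 0) in cells assigned to G1, S and G2M, with 1 line per library (blue circles, 37 °C; orange squares, 39 °C). Srsf7, Srsf3, Hnrnpab and Hnrnpa1 rise from G1 to S at both temperatures with the 39 °C lines below, Srsf5 falls at 37 °C, and 1 Srsf4 value at 39 °C in G2M (56.9 CPM, from 29 cells) stands apart.

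Whether the temperature difference itself changed with phase was tested by the interaction terms of that fit. For S against G1, 5 members had a higher and 3 a lower term (5.09% and 4.85% of all genes), and for G2M against G1, 3 were higher and 2 lower (3.13% and 3.93%). These counts depended on the processing: in G2M, 7 or 8 were higher and 1 lower with other scaling factors, filterByExpr or DESeq2, and 9 were lower with each library scored by itself. Among the terms called, the largest was that of Hnrnpa1. It was at 288, 287, 328 and 309.7 CPM in G1 and at 349, 364, 386 and 372 CPM in G2M at 37 °C, against 169, 144, 158 and 159 CPM in G1 and 282, 260.4, 267 and 282 CPM in G2M at 39 °C. The gap between temperatures was thus smaller in G2M, with a term of 0.52 ± 0.06 on the log2 scale, and it was also smaller in S (0.36 ± 0.05), both passing under every alternative tried.
Srsf4 in S had a term of -0.44 ± 0.11 (adjusted p = 0.00452). At 37 °C it was at 26.4, 22.6, 28.3 and 28.4 CPM in G1 and at 37.8, 37.6, 39.1 and 38.7 CPM in S, whereas at 39 °C it was at 29.4, 31.1, 32.4 and 29.7 CPM in G1 and at 31.5, 31.8, 31.2 and 36.3 CPM in S. Its rise from G1 to S was called at 37 °C, and at 39 °C the difference was 0.10 (adjusted p = 0.413).
Srsf7 in G2M had a term of 0.41 ± 0.09 (adjusted p = 0.00117). It did not pass without replicate 3 at 39 °C (0.30), nor when each library was scored by itself (0.08).

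Genes of the same machinery outside the 4 families were described by 7 lists, to be read against the 31.5% of all genes called higher and 30.5% lower (36.5% and 42.4% at 20 CPM or more). A share near these says nothing particular of a list. Of 25 Sm, LSm and other snRNP proteins tested, 21 were lower at 39 °C, 1 was higher and 3 did not pass, and the median was -0.63. Within G1 cells, where 24.8% of all genes were called higher and 22.4% lower, this list had 3 higher and 15 lower (median -0.17). Snrpa1, the U2 particle's A′ protein, was at 75.3, 91.3, 81.7 and 88.3 CPM at 37 °C and at 26.9, 31.3, 31.3 and 30.7 CPM at 39 °C. It had the largest fall of that list (1.48 ± 0.06, adjusted p = 1.68e-13) and did not overlap. The list's rise was that of Snrnp48, a protein of the minor spliceosome (0.28).

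Of the 8 kinases of SR proteins tested, 4 were higher, 1 was lower and 3 were not called, with a median of 0.13. Of all genes 31.5% were called higher and 30.5% lower. The counts of this list within G1 cells were 4 higher and 1 lower, beside 24.8% and 22.4% of all genes tested there. Clk1 was at 55.0, 58.4, 53.6 and 50.1 CPM at 37 °C and at 83.3, 70.1, 75.9 and 77.6 CPM at 39 °C. It rose by 0.50 ± 0.06 (adjusted p = 2.36e-07) without overlap, while Srpk1, which acts in the cytoplasm, fell by 0.25 ± 0.05 (adjusted p = 0.0002) over all cells but had -0.00077 in G1 (adjusted p = 0.994). The difference between these 2 genes was not tested.

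Of 24 SR-related proteins 7 were higher, 12 lower and 5 not called, beside 36.5% and 42.4% of all genes of at least 20 CPM. Its largest rise and largest fall were the 2 Tra2 paralogues, which bind GAA-rich exonic enhancers. Tra2a was at 110.5, 112, 101 and 102 CPM at 37 °C and at 174, 162, 162 and 169.5 CPM at 39 °C, and Tra2b was at 109.5, 125, 114 and 102 CPM at 37 °C and at 79.3, 66.1, 65.9 and 67.0 CPM at 39 °C. Their ranges overlapped at 37 °C, and at 39 °C Tra2a was above Tra2b in every library (log2 fold changes 0.65 ± 0.05 and -0.70 ± 0.07, adjusted p = 8.47e-10 and 1.72e-08). Both were also called within G1 (0.59 and -0.38). Of the whole list, 6 were higher and 6 lower within G1, beside 24.8% and 22.4% of all genes tested there.

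The same shares stand beside the next 4 lists. Of 37 core spliceosome factors 11 were higher and 19 lower, with Prpf39, a U1-associated protein, at 0.38 and Prpf31, of the tri-snRNP, at -0.78. Other RNA-binding regulators counted 4 higher and 18 lower of 26. Ptbp3, a polypyrimidine tract binding paralogue, had the largest rise (0.28), and Raly, an hnRNP relative with another name, the largest fall among those of at least 20 CPM (-0.85). Exon junction and decay factors counted 4 higher and 7 lower of 13, from Upf2, of nonsense-mediated decay (0.40), to Magohb, of the exon junction core (-0.83). Assembly and import factors counted 3 higher and 10 lower of 16. Among these Tnpo2, a transportin, was at 29.3, 26.6, 26.7 and 27.1 CPM at 37 °C and at 53.8, 56.7, 55.6 and 57.8 CPM at 39 °C, a rise of 1.03 ± 0.05 (adjusted p = 7.15e-13), and Gemin6, of the SMN complex, fell by 0.84. In G1 Tnpo2 was still higher (1.05), and Gemin6 had -0.07 (adjusted p = 0.624). Within G1 cells, 24.8% of all genes were called higher and 22.4% lower. There the core factors counted 11 higher and 9 lower, with a median of 0.01. The other RNA-binding regulators counted 3 higher and 10 lower of 25, exon junction and decay factors 4 and 4, and assembly and import factors 3 and 6.

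**Figure D4:**
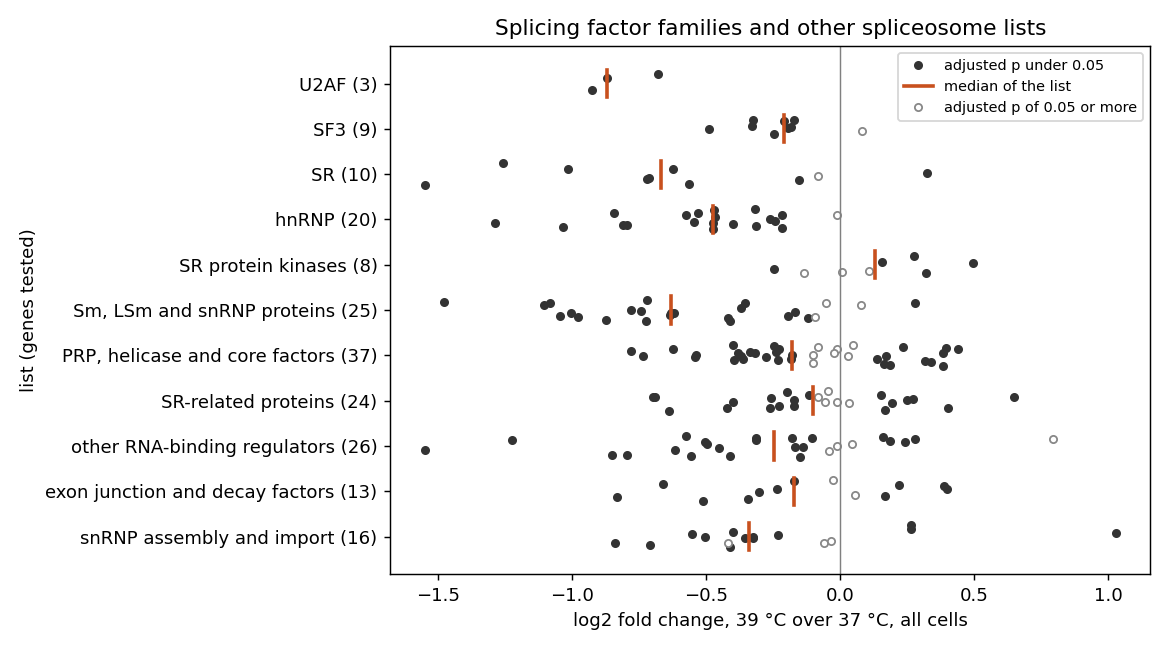
Log2 fold change (39 °C over 37 °C, all kept cells) of each tested gene in the 4 splicing factor families and in 7 lists of related genes, with filled points for an adjusted p under 0.05, open points otherwise and a bar at the list's median. The median lies at -0.87 for U2AF, -0.67 for SR, -0.47 for hnRNP and -0.21 for SF3 genes, at -0.63 for the Sm, LSm and snRNP proteins and at 0.13 for the SR protein kinases.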

How the data were processed

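SN4741 cells were captured with the Chromium Single Cell 3' V3 kit, 4 libraries per temperature. Per the labels and methods, the authors aligned reads to mm10 with Cell Ranger 3.0.1 and deposited UMI counts per gene and cell, with no normalization. Gene positions came from GENCODE M21 (GRCm38, the same assembly), matched on Ensembl identifier (43 of 43 members), and promoters from RefSeq (GRCm38.p6). Members were called near-identical to another transcript where at least 90 bases of their last 400 matched at 97% identity or more (7 members).

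The cell limits given above are those of the study, and no doublet caller was run beyond the limit of 6000 genes. Phases were assigned with Seurat 5.3.0 on all kept cells together (42 of 43 S genes and 52 of 54 G2M genes found). At most 5 barcodes were shared by any pair of libraries, and none was a copy of another (chi-square over genes of at least 2.85 per degree of freedom within a temperature).

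Raw counts were summed per library, or per library and phase. Genes averaging 1 count or more were tested with edgeR 4.0.16 in R 4.3.3 (TMM factors, glmQLFit, glmQLFTest) with temperature as the only term, or with library as a block, phase and phase by temperature. P-values were adjusted by Benjamini-Hochberg over all genes tested. Standard errors (SE) were derived from the log2 fold change and its F statistic. The labels do not say whether replicates were separate cultures, so p-values measure the spread between these libraries. On simulated counts in which 200 genes had a log2 fold change of 1, the all-cell test recovered 196 with 6 false calls (15614 genes). The S against G1 test at 37 °C recovered 200 with 6 false calls (14069 genes). Recovery of changes smaller than 1, the size of most falls given here, was not tested. No such counts are given for the interaction test.

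The rule for members reads symbols only, but these families and the lists were taken up with earlier results of these data known. Values per library were given for every U2AF and SF3 gene tested, for the 4 largest rises and falls of SR and hnRNP genes (called, not overlapping, at least 20 CPM), for the most abundant member of each family and for the 3 largest differences in the phase fit, and the largest rise and fall of each list under the same limits were named. Relatives compared in the hnRNP family and genes named within G1 were chosen after their values were seen. Alternatives were RLE, upper quartile or plain total scaling, filterByExpr or no filter, DESeq2 1.42.0, a replicate block, thinning to equal totals, other cell limits, other phase calls and leaving out each library. Protein sequences were not used here, and 1 marker gene is not reported here.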

Additional observations from a re-analysis of the deposited data

Results flagged for a closer look

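Among 92 groups of 4 library values, 2 held a library far from the other 3, where chance alone gives about 1 in 20 groups. Sf3b3 in replicate 1 at 39 °C was at 111.8 CPM, with the other 3 libraries at 123.9 to 124.5 CPM. Sf3b4 in replicate 1 at 37 °C was at 62.25 CPM, with the others at 74.14 to 74.84 CPM.

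For 11 members the temperature difference itself differed between phases by the interaction test, over 84 such tests of members adjusted with all genes (edgeR quasi-likelihood test, 4 libraries per temperature). In S against G1 the terms on the log2 scale were 0.36 for Hnrnpa1, 0.24 for Sf3b3, 0.17 for Srsf3, 0.17 for Hnrnpm and 0.14 for Hnrnpa3, and -0.44 for Srsf4, -0.21 for Srsf10 and -0.17 for Hnrnpab. In G2M against G1 they were 0.52 for Hnrnpa1, 0.41 for Srsf7 and 0.31 for Hnrnpm, and -0.34 for Hnrnph1 and -0.20 for Sf3b1. Those of Hnrnpa1 in both phases, Srsf4 and Sf3b3 in S and Hnrnph1 in G2M passed under all 16 alternatives, and each of the others was lost under at least 1. The shares of cells by phase and the number of cells behind the 39 °C values differ between temperatures, and their part in these terms was not tested.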

How the results depend on the processing

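Over all cells the count of lower members stayed within 1.5 times of 38 under every alternative. Members higher over all cells were 2 with upper quartile factors or plain totals, where Sf3b1 joined Srsf5. Among S cells the higher members were 2 (upper quartile, filterByExpr, each library scored by itself) or 4 (plain totals). Among G2M cells they were 2 (plain totals, filterByExpr) or 0 (no filter), and lower members were 35 with each library scored by itself. At 39 °C the fall of Srsf5 in S was lost (0 lower) with RLE, plain totals and DESeq2, and that in G2M (0 lower) with plain totals. Interaction counts moved most: in S, 1 lower with plain totals, 2 higher and 7 lower with no filter, 3 and 8 with each library scored by itself, 2 and 8 with updated phase lists; in G2M, 7 higher and 1 lower with RLE, upper quartile, filterByExpr and DESeq2, 8 and 1 with plain totals, and 9 lower (own scoring) or 5 lower (updated lists). The cause of these moves was not tested.

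Leaving out 1 library gave 0 to 1 member higher in G2M cells, 0 to 1 lower in S and in G2M against G1 at 39 °C (0 without replicate 3 at 39 °C), 2 to 4 higher and 1 to 6 lower interaction terms in S, and 3 to 5 higher and 1 to 4 lower in G2M. The call in G2M cells was lost without replicate 1 or 3 at 37 °C or replicate 2 or 3 at 39 °C.

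Signs turned for members near 0 without a call: Hnrnph3 over all cells (0.013 with upper quartile factors, 0.022 with plain totals, -0.052 to 0.025 with 1 library left out, above 0 without replicate 2 at 37 °C and, at 0.0041, without replicate 4 at 39 °C), and in G1, with each library scored by itself, Sf3b5 (-0.082), Srsf11 (-0.026), Hnrnpa0 (-0.070) and Hnrnph3 (-0.0031).

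Same-numbered libraries did not deviate together (correlations of -0.10, -0.09, -0.07 and 0.19 over 11858 genes), so the numbers were not taken to pair libraries. With the replicate number as a block, 38 members were lower and 1 higher over all cells, and 18 lower and 0 higher among G2M cells. Depth limits mainly U2af1l4, Srsf12 and the G2M cells at 39 °C.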
